A study of Mus musculus with 5 samples.

Results

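The miRBase registry numbers miRNAs in the order of their submission, so high numbers stand mostly for entries submitted from deep sequencing. Here, late entries are the mouse miRNAs of the deposited table whose number is 1000 or above and that had at least 1 count summed over the libraries, leaving out 6 numbers whose 13 rows held no count; they were chosen by these counts. There were 153 of them, out of 1103 late-numbered rows, among 517 miRNAs with a count and 1966 rows in all. Their detection and their level are therefore a description. The samples were small extracellular vesicles (EVs) that murine mesenchymal stem cells of C57BL/6-GFP transgenic mice released into serum-reduced medium over 48 h, pelleted at 100000 g. One group was not freeze-dried (2 libraries). The other (3 libraries) was frozen in buffer with 25 mM trehalose, freeze-dried and rehydrated for 1 h. Both groups came from the same kind of culture. Nothing in the labels says that replicates were separate cultures, so the spread between libraries may be technical, and the labels do not name the storage buffer of the EVs that were not freeze-dried.

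A conserved miRNA is cut from a hairpin by Drosha and Dicer and loaded into an Argonaute protein, where bases 2 to 8, the seed, select its targets. Many later registry entries have other routes or weaker evidence. Mirtrons are hairpins made by splicing, whose ends are the ends of a short intron. Other entries lie in transfer RNA (tRNA), in small nucleolar RNA (snoRNA) or in small Cajal body RNA (scaRNA), abundant structural RNAs that also break into pieces of miRNA length. A read counted under such a name cannot be told apart from a piece of the structural RNA in a table of counts, and which of them the counts hold was not tested.

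Depth set these libraries apart. Not freeze-dried replicate 1 held 912080 and replicate 2 held 131507 counts; freeze-dried replicate 1 held 2914305, replicate 2 held 2473178 and replicate 3 held 192450. The 3 libraries above 500000 counts are called deep and the 2 others (not freeze-dried replicate 2 and freeze-dried replicate 3) shallow, a division made after the data were seen. Levels below are CPM, counts scaled to a library total of 1000000 miRNA counts. They are given in the order not freeze-dried replicates 1 and 2, then freeze-dried replicates 1 to 3. A count of 0 allows up to 1.03 CPM in the deepest library and up to 22.8 CPM in the shallowest, by counting error only. Mesenchymal markers (7 of 7 with a count, such as miR-21a-5p and miR-143-3p) took 12.4% to 18.6% of the counts, against 0.322% to 0.469% for striated muscle, 0.0758% to 0.1699% for red cells, 0.0567% to 0.138% for leukocytes (miR-142a-3p and miR-142a-5p at 0), 0.0203% to 0.0753% for epithelium (miR-200c-3p and miR-141-3p at 0) and 0.00912% to 0.0296% for the hepatocyte marker miR-122-5p.

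Of the 153 late entries, 136 matched a mature sequence in RefSeq (GRCm38.p6), as did 292 of the other 364 miRNAs with a count. These 7 of the 8 entries with the highest mean level are shown first. miR-5099, the other one, had no match. Capitals mark the seed.

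miR-6240: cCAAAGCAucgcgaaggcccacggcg

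miR-6538: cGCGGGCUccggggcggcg

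miR-2137: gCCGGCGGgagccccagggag

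miR-1198-5p: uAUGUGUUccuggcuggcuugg

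miR-6236: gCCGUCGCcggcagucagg

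miR-6239: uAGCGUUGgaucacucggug

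miR-5126: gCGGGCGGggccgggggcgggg

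Most of these are rich in G and C. miR-5126 is 100% G and C, miR-6538 94.7%, miR-2137 85.7%, miR-6236 78.9%, miR-6240 69.2%, miR-6239 55.0% and miR-1198-5p 54.5%. The median was 57.1% over the late entries and 47.6% over the other miRNAs. Lengths also spread more: 16 of 136 late entries (11.8%) were shorter than 20 or longer than 24 bases, such as miR-6240 with 26 and miR-6538 with 19, against 8 of 292 others (2.74%). A U as first base, which Argonaute proteins favour, stood in 39.7% of the late entries and 41.1% of the others, and in 7 of 25 abundant late entries. No difference of these features was tested. Seeds were nearly all their own: the seed of miR-6240 recurs in miR-330-3p, whose sequence differs after it.

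miR-330-3p: gCAAAGCAcagggccugcagaga

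Some late entries lie within structural RNA. In 12 of 136 late entries (8.82%), and in 3 of 292 other miRNAs (1.03%), the mature sequence lay in or across a gene annotated as structural RNA in GENCODE M21 or RefSeq. These are the most abundant of them, with miR-3535, which had counts only in the freeze-dried group; capitals mark the seed.

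miR-3069-3p: uUGGACACuaaguacugccaca

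miR-1843b-3p: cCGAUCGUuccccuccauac

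miR-1839-5p: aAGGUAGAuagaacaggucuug

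miR-1843a-3p: uCUGAUCGuucaccuccauaca

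miR-3535: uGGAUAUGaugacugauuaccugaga

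miR-3069-3p (chr12:105031078-105031099, minus strand, GRCm38) lies whole within Scarna13 and ends 3 bases before the end of that gene. miR-1843b-3p (chr1:159340400-159340419, plus strand) lies within Scarna3a, also 3 bases from its end, and miR-1843a-3p (chr12:80391615-80391636, minus strand) within Scarna3b, 2 bases from its end. miR-3068-3p ends 3 bases before the end of a snoRNA named after the miRNA itself, Mir3068. miR-6516-3p ends 2 bases before the end of the scaRNA Gm26083. H/ACA guide RNAs carry the letters ACA close to their end, and miR-3069-3p, miR-1843a-3p and miR-3068-3p end in them. miR-1839-5p lies in a scaRNA that the annotation names after the miRNA itself, Mir1839. miR-1291 lies in Snora34 and miR-3084-5p in an annotated snoRNA, and miR-3535 starts on the first base of the snoRNA Gm24148 (chr1:86352062-86352087, minus strand). The letters of 11 of the 12 occur whole in a structural RNA transcript of GENCODE M21. This follows from their place inside such a gene and is no separate support. The exception is miR-1983, and tRNA genes of the nucleus were not among those transcripts.

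miR-1983 (chr13:21896930-21896950, minus strand) crosses the end of the isoleucine tRNA gene n-TItat14 (chr13:21896938-21897031, strand not given in the RefSeq table). Its first 13 bases fall inside the gene and its last 8 outside. Capitals here mark the bases inside the gene.

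miR-1983: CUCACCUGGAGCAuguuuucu

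The bases outside hold a run of U, the letters at which RNA polymerase III, the enzyme that makes tRNA, stops.

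Of the 136 late entries with a sequence, 0 occurred whole in the 5 ribosomal or ribosome-like transcripts searched. Entries without a sequence, miR-5099 among them, could not be searched. In the 1831 bases of Gm42418, listed in RefSeq as the 18S pseudogene Rn18s-rs5, the longest shared run was 11 bases, of miR-6240. In the 5S RNA Rn5s it was 8 bases, of miR-3066-5p, and in AY036118, of 923 bases, 10 bases, of miR-3074-5p. In Gm26917, searched as 2 transcripts of 3329 and 869 bases, it was 12 bases, of miR-1249-3p, the longest of all, and 10 bases, of miR-5134-3p. The 28S, 5.8S and spacer sequences of the ribosomal precursor were not used here, so whether miR-6240, miR-6239, miR-6236, miR-6538 or miR-2137 match them was not tested. By annotation, miR-6240 (chr5:114851973-114851998, plus strand), miR-6236 (chr9:110281353-110281371, plus strand), miR-6239 (chr14:117953768-117953787, minus strand) and miR-5126 (chr1:84695890-84695911, plus strand) lie in no gene on their strand. miR-6538 (chr12:26414970-26414988, minus strand) lies in an intron of Rnf144a, miR-2137 (chrX:72992113-72992133, plus strand) in one of Zfp185 and miR-1198-5p (chrX:7807142-7807163, plus strand) in one of Gripap1.

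Hairpins at the ends of short introns held mostly rarer late entries. In 33 of 136 late entries (24.3%), and 7 of 292 other miRNAs (2.40%), a product of the hairpin started or ended within 5 bases of the end of an intron shorter than 1000 bases. The counted entry itself can lie away from both ends, such as miR-3064-5p, 673 bases from the start of its intron and 42 from the end. Of the 13 entries from the 3p arm, 9 ended on the last base of the intron, and 9 ended in AG, the letters of a splice acceptor. Of the 19 from the 5p arm, only 4 started on the first base of the intron. The introns had a median of 104 bases and reached 932 bases, that of miR-7051-5p in Etfb, so some of these hairpins share only 1 end with their intron. These examples are the abundant one, miR-1981-5p, and a pair of the more abundant 3p products; capitals mark the seed.

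miR-1981-5p: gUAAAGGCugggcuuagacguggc

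miR-6944-3p: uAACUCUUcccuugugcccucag

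miR-3102-3p: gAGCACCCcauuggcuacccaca

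miR-1981-5p starts on the first base of an intron of Marc2, which has 82 bases. miR-6944-3p ends on the last base of an intron of Dbn1, with 96 bases, and miR-3102-3p ends 1 base before the end of an intron of Arhgef17, with 104 bases. Entries of hairpins at short intron ends held 4.49% of all counts of the 136 placed late entries, with a median of 26 summed counts per entry. Those in structural RNA positions held 7.72%, with a median of 117.5. The 51 entries in other introns held 44.4% and the 22 with no gene on their strand 31.3% of these pooled counts, in which deep libraries weigh most. By CPM the order depended on the library. Entries with no gene on their strand lay above those in introns in both libraries without freeze-drying (3677 against 2866 CPM and 16265 against 9148 CPM) and in freeze-dried replicate 3 (10444 against 8485 CPM). They lay below them in freeze-dried replicates 1 and 2 (1249 against 2294 CPM and 2120 against 4499 CPM).

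**Figure D1:**
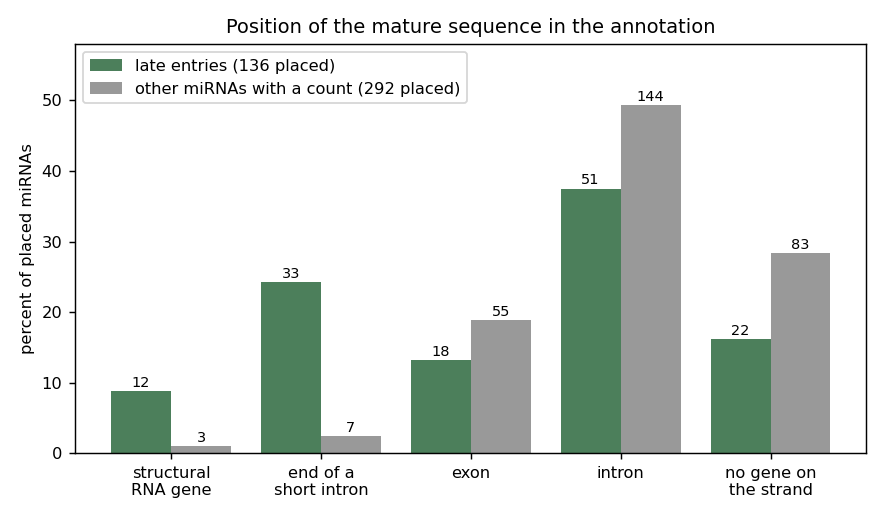
Position of the mature sequence in the annotation (GENCODE M21 and RefSeq, GRCm38), as a percent of placed miRNAs, with the number of miRNAs above each bar. Of the late entries (green), 24.3% had a product of their hairpin at the end of a short intron and 8.82% lay in or across a structural RNA gene. These shares were 2.40% and 1.03% for the other miRNAs with a count (grey). The counted entry itself can lie away from the ends of the intron.

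Exons of other genes held 18 late entries. miR-1306-5p and miR-1306-3p come from 1 hairpin in an exon of Dgcr8, which encodes the partner of Drosha and whose own messenger RNA the Drosha complex is known to cut.

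miR-1306-5p: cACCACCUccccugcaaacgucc

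miR-1306-3p: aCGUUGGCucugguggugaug

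miR-5114 lies in an exon of Scd2, a fatty acid desaturase, miR-8114 in one of Glul, glutamine synthetase, and miR-8112 in one of Krcc1. Grouped by name, 93 late hairpins were named with an arm, and 15 of these had counts for both arms, miR-1306 among them. Names with an added suffix, such as miR-3102-5p.2-5p beside miR-3102-3p in the same intron of Arhgef17, were counted apart.

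Most late counts in each library lay in the abundant entries. The 5 highest late entries of a library held 44.4% to 59.6% of its late counts. Abundant late entries are 5 named as examples when the members were chosen (miR-6240, miR-6239, miR-6538, miR-6236 and miR-2137) and all others with a mean of at least 100 CPM over the 5 libraries. These are 26 entries, from miR-6240 with a mean of 3324 CPM, place 51 in the whole table, down to miR-6238 with 100.7 CPM. The first one outside, miR-3095-3p, had 92.9 CPM. Over the 26 the median was 1080 summed counts, against 37 for the 127 others. At the lower edge of the rule, 10 late entries had 1 count in all and 39 had under 10. Counts in all 5 libraries were found for 21 of 26 abundant and 8 of 127 other late entries, and 85 of these 127 had counts in 1 library alone, 15 to 20 of them in each library. Of the 88 miRNAs with a mean of 1000 CPM or more, 5 were late entries. 

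The leading late entry differed between libraries. It was miR-6239 in not freeze-dried replicate 1, with 20.9% of the late counts. In both shallow libraries it was miR-6240, with 25.1% in not freeze-dried replicate 2 and 25.2% in freeze-dried replicate 3. In both deep freeze-dried libraries it was miR-1198-5p, with 15.2% and 14.5%.

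miR-6240 stood at 1108 and 8167 CPM without freeze-drying, and at 274.9, 809 and 6261 CPM after it. miR-6538 stood at 54.8 and 3810 CPM, and at 0, 60.2 and 3258 CPM. miR-6236 stood at 61.4 and 3711 CPM, and at 219.6, 172.2 and 1450 CPM. For each of these the 2 shallow libraries lay above every deep one, and the groups overlapped. miR-2137 stood at 629 and 1574 CPM, and at 316, 1298 and 2515 CPM. miR-5126 stood at 157.9 and 1703 CPM, and at 71.7, 368 and 1200 CPM. These followed the same order with a smaller gap, 2.73-fold for miR-2137 and 7.28-fold for miR-5126 between shallow and deep means, against 9.87-fold for miR-6240, 17.1-fold for miR-6236 and 92.1-fold for miR-6538.

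The entries of structural RNA did not move as 1 set. miR-3069-3p of Scarna13 had 216 counts in the shallow library without and 190 in that with freeze-drying, and 0 in each of the 3 deep libraries. miR-1843b-3p of Scarna3a had 0 and 91 counts, and 6, 14 and 21 after freeze-drying, or up to 692 CPM. miR-1983 of the tRNA gene stood at 324.5 and 692 CPM, and at 320.1, 269.3 and 582 CPM. Each of these 3 was higher in both shallow than in every deep library, by 2.09-fold in mean for miR-1983. miR-1839-5p was not, with 133.8 and 197.7 CPM, and 5.83, 222 and 83.1 CPM.

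miR-1198-5p and miR-5099 were the steady ones among the 10 most abundant. miR-1198-5p stood at 934 and 1574 CPM, and at 899, 1410 and 1242 CPM. miR-5099 stood at 841 and 608 CPM, and at 579, 1101 and 837 CPM. In both, shallow and deep libraries overlapped, as did the groups.

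Of the 26 abundant late entries 12 (46.2%) were higher in both shallow than in every deep library, 1 (miR-7688-5p) was lower in both and 13 overlapped. Of all 327 miRNAs that passed the low-count filter, 13.1% were higher in this sense and 16.8% lower. Of the 166 other miRNAs that averaged 100 CPM or more, 11.4% were higher and 22.9% lower. The mean over libraries that defines abundance counts a shallow library as much as a deep one, so entries high in shallow libraries were more easily chosen. Several of the 12 passed 100 CPM only through the shallow libraries. Their deep means were 0 CPM for miR-3069-3p, 2.57 for miR-1843b-3p, 19.9 for miR-5108 and 26.2 for miR-5100, among others. The 46.2% is thus in part set by the choice of members and is no test of them. Highest over lowest CPM had a median of 13.2 over the 21 abundant late entries with counts in every library, and of 2.59 over 153 such other miRNAs. Across the 25 abundant entries with a sequence, G and C content and the log2 ratio of shallow to deep means, taken as log2(CPM + 1), had a Pearson correlation of 0.16 and a Spearman correlation of 0.14, a description over entries that share libraries. Each depth class holds libraries of both groups, and what sets the shallow libraries apart beside their depth was not tested.

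**Figure D2:**
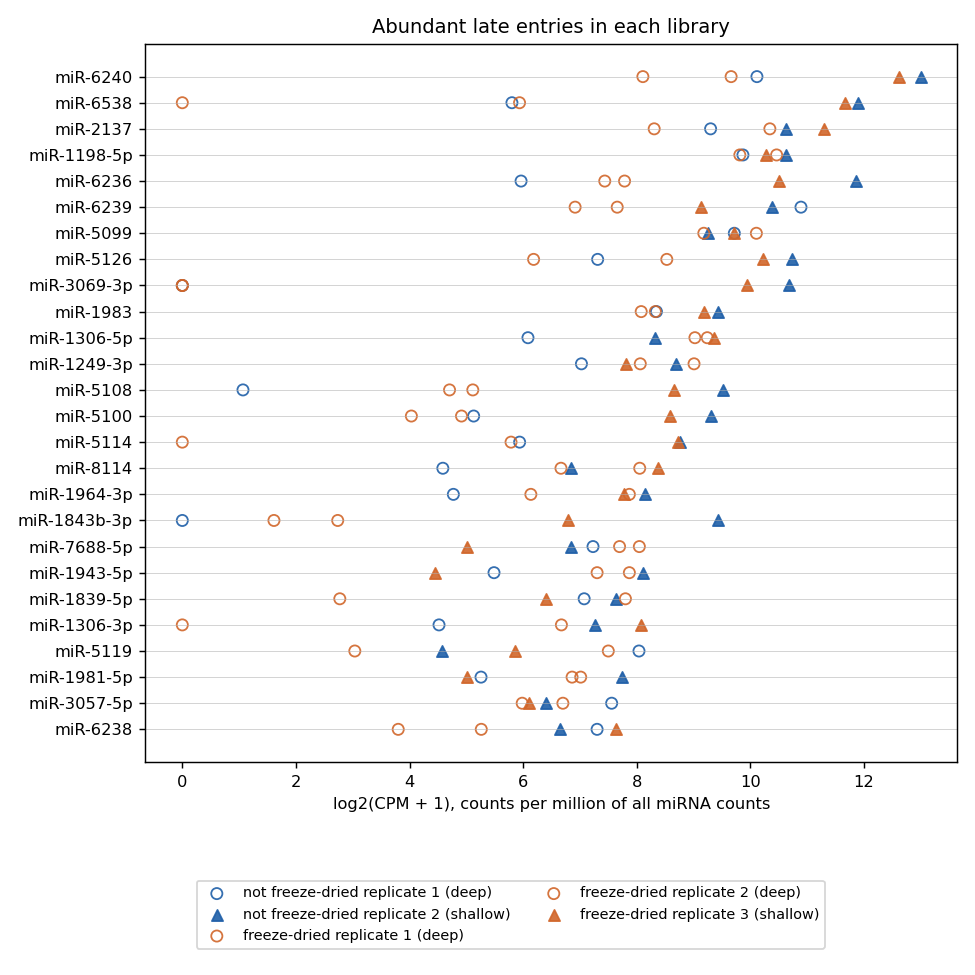
Level of the 26 abundant late entries in each library, as log2(CPM + 1) on the x axis; blue is not freeze-dried, orange freeze-dried, filled triangles are shallow and open circles deep libraries. For miR-6240, miR-6538 and miR-6236 both triangles lie right of every circle, whereas for miR-5099 they fall among the circles. For miR-1198-5p the orange triangle falls among the circles and the blue one lies right of them.

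The 5 miRNAs whose levels followed miR-6240 most closely over the 5 libraries were miR-92b-3p (Pearson correlation of log2(CPM + 1) of 0.997), miR-6538 (0.98), miR-5126 (0.95), miR-146a-5p (0.94) and miR-320-5p (0.93), out of 191 candidates of at least 100 CPM. Of these, 2 are late entries. All 5 were higher in both shallow than in every deep library, so their correlations in part restate that split. miR-92b-3p stood at 706 and 1650 CPM, and at 355, 644 and 1621 CPM. miR-146a-5p, a miRNA induced by NF-kB, stood at 449.5 and 11619 CPM, and at 130.7, 82.1 and 9114 CPM.

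Late entries as a whole took 0.908% and 3.25% of the counts without freeze-drying (exact 95% binomial intervals 0.888 to 0.927 and 3.15 to 3.35). They took 0.593%, 0.974% and 2.49% after freeze-drying (intervals 0.584 to 0.601, 0.962 to 0.987 and 2.42 to 2.56). These intervals cover counting error only, since reads are not independent molecules, and each library lay outside the intervals of the others. The group means were 2.08% ± 1.66 (SD, n = 2) and 1.35% ± 1.00 (SD, n = 3), and the groups overlapped. The means were 0.825% over the deep and 2.87% over the shallow libraries. Among deep libraries the not freeze-dried one had 0.908% against 0.784% on average in the freeze-dried ones, and among shallow ones 3.25% against 2.49%. Abundant entries took 0.459% to 2.96% and the 127 others 0.127% to 0.2905% of the counts. Without miR-6240 the group means were 1.61% ± 1.16 (SD, n = 2) and 1.11% ± 0.67 (SD, n = 3).

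**Figure D3:**
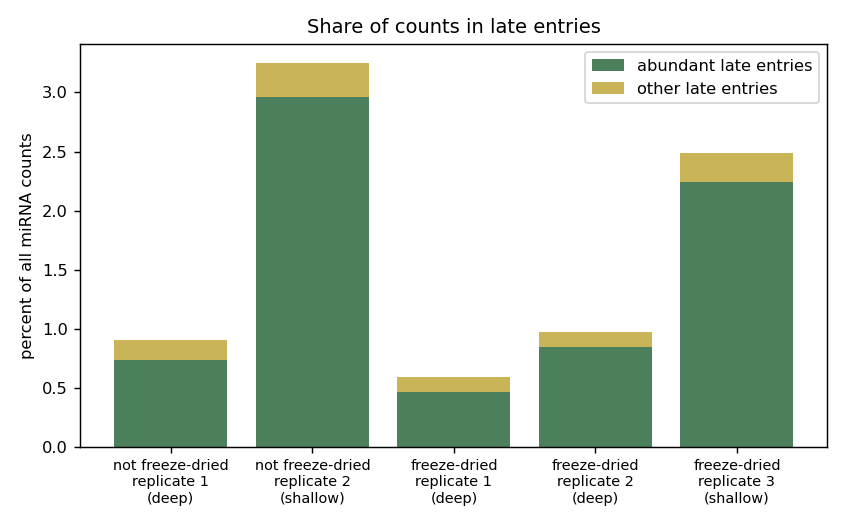
Percent of all miRNA counts in the 26 abundant (green) and 127 other (yellow) late entries in each library. The 2 shallow libraries, 1 of each group, reach 3.25% and 2.49%, above the 3 deep ones at 0.593% to 0.974%.

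Late entries were found in similar number in both groups. With a count in 64 and 71 late entries in the not freeze-dried and in 73, 61 and 73 in the freeze-dried libraries, they made up 19.1% to 22.5% of the miRNAs detected in a library. At an equal depth of 131507 counts, the expected numbers were 63.2 ± 11.1 (SD, n = 2) without and 61.4 ± 7.0 (SD, n = 3) with freeze-drying. The shallow libraries had 71.0 and 68.5 and the deep ones 54.5 to 61.2.

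No late entry passed the test between the groups. edgeR's quasi-likelihood test, with Benjamini-Hochberg adjustment over 327 miRNAs, called 0 higher (0% of all tested) and 0 lower (0%), with a lowest adjusted p of 0.98. At an unadjusted p under 0.05 edgeR had 2 late entries, both lower, among 9 miRNAs in all (2.75%), and DESeq2 had 3 late entries among 16 miRNAs in all and called 0. The filter passed 55 late entries, all 26 abundant and 29 others. Among these 55, the fold change lay above 1 for 24 and under 1 for 31, and the median on the log2 scale was -0.39, beside 0.02 over all 327. With no filter the median over the 153 was 0.49 and 85 were above 1, beside 0.25 over all 517, so the sign of the median depends on the filter. The median SE was 2.10 on the log2 scale for tested late entries and 1.38 for the other miRNAs. CPM did not overlap between groups for 3 late entries higher in freeze-dried EVs, beside 6.73% of all tested, and for 5 lower, beside 9.79%. Those shares are close to the background.

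miR-6239 had the smallest unadjusted p of the late entries (0.0087). It stood at 1898 and 1331 CPM in not freeze-dried EVs and at 200.7, 119.7 and 561 CPM in freeze-dried EVs, without overlap, with a log2 fold change of -2.29 (SE 0.70, adjusted p = 0.98 with edgeR). Of the 26 abundant entries it was the only one whose 3 freeze-dried libraries all lay below both others. In the 3 deep libraries alone edgeR called it lower (log2 fold change -3.40, adjusted p = 0.0093), the 1 call among 418 miRNAs (0.239%). That fit sets 1 library against 2, takes all of its spread from the freeze-dried pair and assumes that the lone library varies like them, and it was chosen after the data were seen. Mesenchymal markers also lay lower after freeze-drying without overlap (17.1% and 18.6% against 13.8%, 12.5% and 12.4% of the counts). So did epithelial ones (0.0753% and 0.0707% against 0.0427%, 0.0220% and 0.0203%). Red cell, leukocyte, hepatocyte and striated muscle markers overlapped between the groups. The part of any markers in the result for miR-6239 was not tested.

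miR-1306-5p of Dgcr8 showed the opposite order. It stood at 66.9 and 319 CPM in not freeze-dried EVs and at 519.5, 604 and 659.9 CPM in freeze-dried EVs, without overlap, with a log2 fold change of 1.71 (SE 0.87) that was not called and ranged from 1.01 without not freeze-dried replicate 1 to 3.32 without replicate 2 of that group. Its other arm, miR-1306-3p, overlapped between the groups, at 21.9 and 152.1 CPM against 0, 101.1 and 270.2 CPM. miR-8114 of Glul, with 23.0 and 114.1 CPM against 100.5, 264.4 and 332.6 CPM, had a log2 fold change of 1.86 (SE 1.37), also not called, and 1.14 and 3.49 without those same libraries.

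For miR-6240, miR-6538, miR-6236 and miR-2137 the error exceeded the difference. Log2 fold changes were -0.81 (SE 1.86) for miR-6240, -0.69 (SE 3.74) for miR-6538, -1.52 (SE 2.06) for miR-6236 and 0.43 (SE 0.86) for miR-2137. The 95% interval of miR-6240 ran from -6.37 to 4.76. Without not freeze-dried replicate 2, a shallow library, miR-6240 had 1.33, miR-6538 4.52 and miR-6236 3.50, so that library decides their sign. The steady entries had narrower intervals, from -0.98 to 1.02 for miR-1198-5p (log2 fold change 0.02, SE 0.45) and from -0.81 to 1.48 for miR-5099 (0.34, SE 0.51). On the lower side, by p, came also miR-1843b-3p (-3.10, SE 2.58), miR-7210-5p (-2.33, SE 2.99) and miR-6944-3p (-1.37, SE 1.89), none called. Without not freeze-dried replicate 2, miR-6944-3p had -0.16, and the sign of miR-1843b-3p and miR-7210-5p turned, to 9.01 and 8.44. The only not freeze-dried library then left had 0 counts of both, so the size of these turned values is not measured. miR-7210-5p had 0 and 36 counts, and 2, 0 and 15 after freeze-drying.

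**Figure D4:**
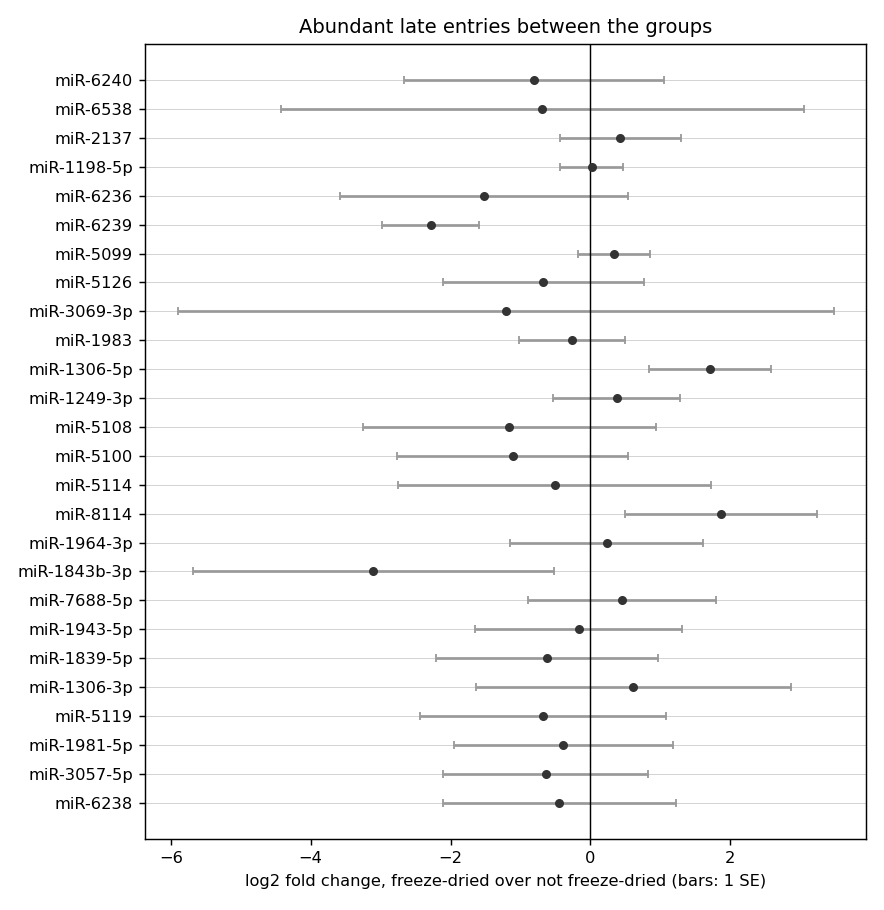
Log2 fold change, freeze-dried over not freeze-dried, of the 26 abundant late entries (edgeR, points) with 1 SE (bars); none was called. The bars stay clear of 0 for miR-6239 at -2.29, miR-1843b-3p at -3.10, miR-1306-5p at 1.71 and miR-8114 at 1.86, while those of miR-6240, miR-6538 and miR-3069-3p are wide.

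A handful of rare entries had counts in each library of 1 group and none of the other. The share of all miRNAs that did so was not computed, so this is a description only. miR-1949 had 29 and 7 counts without freeze-drying and 0 in all 3 libraries after it, at least 64.2-fold lower there against a floor of 3 counts over the group, by counting error alone (30.7-fold without freeze-dried replicate 1, 35.7-fold without replicate 2 of that group; 99.0-fold if not freeze-dried replicate 1 is left out). miR-3535, of the snoRNA Gm24148, had 0 and 0 counts against 44, 77 and 1, which puts it at least 7.61-fold higher after freeze-drying (5.04-fold without freeze-dried replicate 2). With not freeze-dried replicate 1 left out, the level of miR-3535 lies under the floor and no bound can be given. Neither fold includes the spread between libraries of a group, which can be large for rare entries. miR-1955-5p, for example, had 222 counts in freeze-dried replicate 1 and 0 in replicate 2 of that group, both deep. The folds are therefore no lower limits of a difference between the groups. miR-5128 had 1 count in each not freeze-dried library, too few for a fold. Named by their p instead, miR-6914-3p and miR-7654-5p lacked counts in 1 freeze-dried library each. miR-6914-3p, which ends on the last base of an intron of Ankrd52, had 0 and 0 counts against 0, 45 and 11. miR-7654-5p had 0 and 0 against 49, 37 and 0. None of these was called.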

How the data were processed

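Small RNA libraries (NEXTFLEX Small RNA-seq kit v3, size-selected at 126 to 169 bp, per the labels' protocols) were made from EVs that were not freeze-dried (n = 2) or freeze-dried (n = 3). The authors deposited 1 table of unnormalized counts, 1 row for each mature miRNA. Tools listed in the submitters' processing notes, with no role or order, are cutadapt 2.3, Bowtie 1.1.2, featureCounts 1.5.0-p1, FastQC and bcl2fastq 2.20, beside the build GRCm38. Not given in the sources used here: the registry release, the use of strand and the handling of reads with several matches. Reads that fit a late entry and a repeated structural RNA can have been dropped or assigned to either.

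The members, lists and tests were chosen with earlier results of these data known. edgeR 4.0.16 in R 4.3.3 (TMM, filterByExpr, robust quasi-likelihood F test) was fitted on the whole table, with an adjusted p threshold of 0.05. The SE is the log2 fold change over the square root of F. The fit was tested on simulated counts. Summed shares get no p, since the members were chosen with results known. Sequences and positions came from RefSeq (GRCm38.p6) and GENCODE M21, same build; an entry with several loci took the first fitting class of structural RNA, short intron end, exon, intron and no gene. A list of 4 older entries from the ribosomal precursor (miR-712 and related) was looked up by name, and 0 of the 4 had a row among the deposited counts. Detection at equal depth is the hypergeometric expectation. Named entries are the abundant ones, the 5 with the smallest p in each direction, those with counts in 1 group only, those in structural RNA, and the 5 miRNAs most like miR-6240. Entries named beside these as examples (miR-3102-3p, miR-7051-5p, miR-8112, miR-330-3p and those with the longest ribosomal runs) were chosen after their values were seen. Alternatives were other normalizations, DESeq2 1.42.0, other filters, each library left out and the replicate number as a block.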

Additional observations from a re-analysis of the deposited data

How the results depend on the processing

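Depth class as a term, the 3 deep libraries and the 2 shallow libraries were chosen after seeing the data. The count of 0 late entries called higher held in all 14 alternative fits. The count of 0 lower became 4 with the replicate block (miR-6240, miR-6239, miR-3069-3p and miR-6538, 1.22% of 327 tested) and 1 in the 3 deep libraries. The replicate numbers give only 2 pairs, with deviations from the group means correlated at 0.17 and -0.12. Deviations of the 2 not freeze-dried libraries mirror each other, so these values cannot show whether equal numbers mark pairs. Replicate 2 is shallow in 1 group and deep in the other, and freeze-dried replicate 3 has a block to itself. Leaving out 1 library gave 0 to 0 called lower. The difference in late share, freeze-dried minus not, of -0.73 percentage points ranged from -1.90 to 0.44 without 1 library, that of abundant entries from -1.78 to 0.45 and that of the others from -0.12 to -0.0039; the upper ends are without not freeze-dried replicate 2. With the replicate block it was -1.29, without miR-6240 -0.51. The difference in detected late entries of -1.79 became 1.5 without thinning; it was 2.48 among deep libraries and lay between -9.62 and 6.05 with 1 library left out. Log2 fold changes without 1 library ranged from -2.99 to 1.33 for miR-6240, -5.92 to 4.52 for miR-6538, -3.12 to 3.50 for miR-6236, -0.34 to 1.29 for miR-2137, -0.31 to 0.50 for miR-1198-5p, -4.04 to 9.01 for miR-1843b-3p and -3.27 to 8.44 for miR-7210-5p. The upper ends for miR-1843b-3p and miR-7210-5p are set against 0 counts without freeze-drying, so their size is not measured. miR-6236 turned to 0.42 given a depth term and 1.83 among deep libraries, miR-1843b-3p to 0.18 and 6.04 (the latter also against 0 counts), and miR-2137 to -0.55 with the block. miR-1198-5p, near 0, turned to -0.0046 with DESeq2, -0.0092 with RLE factors, -0.030 with upper-quartile factors and -0.019 with the block. The cause of these changes was not tested. Of 12 late entries with a stated fold change, miR-6239, miR-1306-5p, miR-8114, miR-5099 and miR-6944-3p kept their direction in every fit that tested them, though not their size: without 1 library they ranged from -3.17 to -1.92, 1.01 to 3.32, 1.14 to 3.49, 0.14 to 0.56 and -1.97 to -0.16.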
